A study of Mus musculus with 31 samples.

Results

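The interleukin-1 (IL-1) family was followed through 10 genes, taken as the entries of the deposited count table whose gene symbol was *Il1a*, *Il1b*, *Il18*, *Il33*, *Il1rn*, *Il1r2*, *Il1r1*, *Il1rap*, *Il1rl1* or *Casp1*, which are 10 of its 39179 genes. IL-1α and IL-1β bind the receptor IL1R1, which recruits the accessory protein IL1RAP and signals through MyD88 to NF-kB. The antagonist encoded by *Il1rn* blocks that receptor, while the decoy receptor encoded by *Il1r2* binds the ligand without signaling. IL-18 and IL-33 are related cytokines, and the pro-forms of IL-1β and IL-18 are cleaved by caspase-1 in the inflammasome. In skin and in tumors, IL-1β comes largely from myeloid cells, whereas IL-33 is stored in the nuclei of epithelial and stromal cells. Glucocorticoids (GC) act through the glucocorticoid receptor (GR, gene *Nr3c1*) and are known to lower inflammatory cytokines in myeloid cells.

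The study asked how topical GC acts on melanoma and whether this needs GR in the melanoma cells. The melanoma line 20967, from a C57BL/6 mouse of genotype Nras+LSL-G12D;Tyr::CreERT2+/o, and a GR KO derivative were grown intradermally in wild-type C57BL/6 mice. The Tyr promoter directs the inducible Cre to melanocytes. The GR KO line came from single-cell clones made with a CRISPR ribonucleoprotein and checked by Western blot, so it is a clonal line, and the host cells in its tumors keep their own GR. There were 4 groups of 5 tumors: parental with control treatment, parental with GC, GR KO with control treatment and GR KO with GC. The GC was clobetasol propionate as a 0.05% ointment given topically 3 times a week against a control cream, and the age of the mice is not given in the sources used here. There were also 4 groups of cultures kept for 48 hours, which were parental cells in DMSO (3) or GC (2) and GR KO cells in DMSO (3) or GC (3). The treatment labels give 10 µM clobetasol propionate for these cultures, while the library names give 1 µM. Those names carry the same date for all cultures and a letter from A to C. Whether the letters stand for separate experiments is not stated.

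RNA was sequenced from transcript 3′ ends, and the values are reads per gene. Levels below are CPM, the reads of a gene relative to the library total scaled with TMM factors, which correct for differences in composition between libraries. A count of 3, taken as the detection floor, corresponds to between 0.112 and 0.220 CPM in tumors and between 0.136 and 0.207 CPM in cultures. A gene was called differentially expressed (a DEG) at an adjusted p under 0.05 and a fold change of at least 1.5, from edgeR over all genes tested. Intervals and floors cover counting error only, while p-values measure the spread between samples. In whole tumors, fewer cells of a type and less RNA per cell cannot be told apart. Values are listed from replicate 1 onward within each group, and replicate numbers do not pair mice across groups.

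The tissue labels were checked against marker genes. Of 8 melanocyte lineage genes, 5 were at 0 in every parental DMSO culture (*Dct*, *Mlana*, *Sox10*, *Tyr* and *Tyrp1*), and *Tyr* was also at 0 in every tumor, while *Mitf* was the most abundant of the list in all 8 groups. Leukocyte genes were near 0 in cultures, with a summed level of 0.473 ± 0.196 CPM (SD, n = 3) in parental DMSO cultures against 1088 ± 146 CPM (SD, n = 5) in parental control tumors. The level of *Nr3c1* RNA alone does not show the genotype, since an edited gene can still be transcribed and the tumors hold host cells. *Nr3c1* differed between genotypes by a log2 value of -1.02 (SE 0.24, adjusted p = 0.0313 from edgeR) in control tumors, -0.02 (SE 0.24, adjusted p = 0.981 from edgeR) in GC tumors and -0.67 (SE 0.22, adjusted p = 0.0840 from edgeR) in DMSO cultures, of which only the first was called. Of the GR KO control tumors, replicates 1, 2 and 5 exceeded every other tumor in the share of reads on *Gm26924* (ENSMUSG00000098178). This transcript overlaps a ribosomal RNA gene on the opposite strand. Its share was 11.6, 8.97, 6.57, 0.248 and 16.3% in GR KO control tumors, with replicate 4 far below the other 4 and replicate 3 below GR KO GC replicate 4. It was 5.55, 1.76, 1.24, 1.70 and 0.439% in parental control tumors, 1.60, 2.78, 1.25, 1.67 and 0.700% in parental GC tumors and 0.800, 2.89, 0.959, 6.65 and 1.48% in GR KO GC tumors. The GR KO control tumors had 13442, 14887, 15150, 16980 and 14335 genes detected, against 15224 to 16983 in the other tumor groups. By that number replicate 4 alone lay within the range of the other groups. Its part in the results that use the GR KO control tumors was not tested beyond a fit with its logarithm as a covariate and fits without replicate 4, which are given where they change a call.

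GC lowered *Il1b* in tumors of both genotypes, and it lowered *Il1r2* in GR KO tumors, while the other ligands, the antagonist, the signaling receptors and *Casp1* did not pass the test in either genotype. Of the 10 genes, 9 passed the filter on low counts in tumors and *Il1a* did not. In parental tumors 1 of these 9 was a DEG, beside 0.779% of the 15919 genes tested. In GR KO tumors 2 of 9 were DEGs, beside 6.42% of all genes. These shares depended on single tumors. With 1 tumor left out, 60 (without parental control replicate 3) to 178 genes (without parental control replicate 2) were called in parental tumors, against 124 with all. In GR KO tumors 303 (without GC replicate 3) to 2411 genes (without control replicate 4) were called, against 1022 with all and 626 with the *Gm26924* covariate.

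Among the ligands, *Il1b* encodes IL-1β (ENSMUSG00000027398, chr2:129364570-129371139, minus strand, GRCm38 with GENCODE M21, as for all positions here). Its level was 18.2, 65.3, 46.9, 28.3 and 50.0 CPM in the parental control tumors and 10.3, 2.51, 5.08, 4.33 and 3.99 CPM in the parental GC tumors. Without GR in the melanoma cells it was 6.45, 29.8, 41.0, 45.5 and 30.4 CPM with control treatment and 5.75, 2.59, 8.90, 7.63 and 6.40 CPM with GC. All 5 parental GC tumors lay below every parental control tumor, with a gap between 10.3 and 18.2 CPM. In GR KO tumors the groups overlapped through control replicate 1, which at 6.45 CPM lay below 2 GC tumors, while the other 4 control tumors had at least 29.8 CPM. The log2 fold change was -2.99 (SE 0.46, adjusted p = 0.00156 from edgeR) in parental tumors and -2.29 (SE 0.45, adjusted p = 0.00549 from edgeR) in GR KO tumors. Two-sided exact permutation tests gave p = 0.00794, the smallest that 5 against 5 tumors allow, in parental and p = 0.0238 in GR KO tumors. The calls were kept in 10 of 10 fits that left out 1 tumor in each genotype. Each effect was measured against its own controls, and the difference between them had a log2 value of -0.70 (SE 0.61, adjusted p = 0.533 from edgeR).

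*Il1a*, which encodes IL-1α (ENSMUSG00000027399, chr2:129299610-129309972, minus strand), was near the floor. It had reads in 9 of 20 tumors and in 0 of 11 cultures, and its highest level was 0.689 CPM in GR KO GC replicate 4. No fold change is given for it.

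*Il18* encodes IL-18, a cytokine that induces interferon-γ in lymphocytes (ENSMUSG00000039217, chr9:50554827-50581840, plus strand). It measured 42.6, 44.0, 42.3, 39.8 and 43.9 CPM in parental control tumors and 44.9, 56.3, 39.2, 62.7 and 39.5 CPM with GC. GR KO tumors had 34.8, 66.9, 41.2, 48.4 and 53.5 CPM with control treatment and 43.6, 64.5, 38.1, 58.1 and 43.7 CPM with GC. The parental control tumors lay within a narrow band, and the other 3 groups spread on both sides of it. Its change with GC, in log2, was 0.19 (SE 0.20, adjusted p = 0.715 from edgeR) in parental and 0.02 (SE 0.20, adjusted p = 0.968 from edgeR) in GR KO tumors.

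*Il33* encodes IL-33, an alarmin released from damaged cells (ENSMUSG00000024810, chr19:29925114-29960718, plus strand). Its levels were 38.3, 67.6, 50.7, 46.7 and 98.7 CPM in parental control tumors and 57.9, 48.8, 62.9, 31.6 and 54.8 CPM in parental GC tumors. They were 59.4, 65.8, 84.0, 79.4 and 52.6 CPM in GR KO control tumors and 47.1, 37.0, 49.5, 44.9 and 51.0 CPM in GR KO GC tumors. The parental groups overlapped, whereas all 5 GR KO GC tumors lay below every GR KO control tumor, by at least the step from 51.0 to 52.6 CPM (two-sided exact permutation test, p = 0.00794). Across all genes this did not pass, with a log2 fold change of -0.57 (SE 0.23, adjusted p = 0.129 from edgeR) in GR KO tumors beside -0.24 (SE 0.23, adjusted p = 0.684 from edgeR) in parental tumors.

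**Figure D1:**
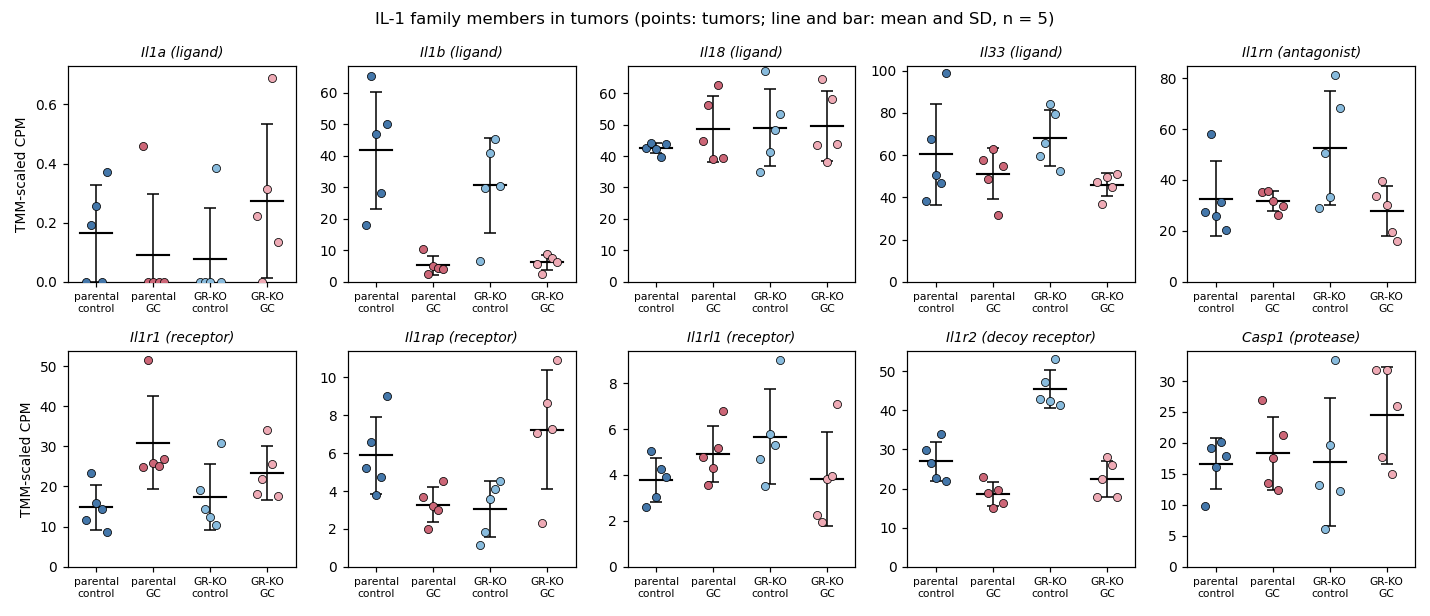
TMM-scaled CPM of the 10 genes in each tumor, by group, with 1 point per tumor and the mean and SD of 5 tumors as a line and bar. The 5 parental GC tumors lie between 2.51 and 10.3 CPM for *Il1b*, all below the parental control tumors.

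The receptor antagonist gene *Il1rn* (ENSMUSG00000026981, chr2:24336853-24351494, plus strand) measured 27.4, 58.0, 25.8, 31.4 and 20.4 CPM in parental control tumors and 35.4, 35.8, 31.9, 26.2 and 29.9 CPM with GC. GR KO tumors had 28.8, 50.7, 33.5, 81.3 and 68.3 CPM with control treatment and 33.7, 39.6, 30.3, 19.4 and 15.9 CPM with GC. Replicates 4 and 5 of the GR KO control tumors were the highest of all 20 tumors, and 2 of the 5 GR KO GC tumors lay below every GR KO control tumor. The log2 fold change was -0.03 (SE 0.30, adjusted p = 0.976 from edgeR) in parental and -0.92 (SE 0.30, adjusted p = 0.0691 from edgeR) in GR KO tumors. The latter was called by DESeq2, at -0.95 (adjusted p = 0.0236), and by edgeR without GR KO GC replicate 2, at -1.08 (adjusted p = 0.0452), where 1779 of 15919 and 1067 of 15861 genes were called.

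Set against the ligand that the antagonist competes with, the number of *Il1rn* reads per *Il1b* read was 1.51, 0.889, 0.550, 1.11 and 0.408 in parental control tumors and 3.45, 14.2, 6.28, 6.06 and 7.50 in parental GC tumors. It was 4.47, 1.70, 0.817, 1.79 and 2.25 in GR KO control tumors and 5.86, 15.3, 3.40, 2.55 and 2.49 in GR KO GC tumors. The parental groups did not overlap, and every parental GC tumor had more *Il1rn* than *Il1b* reads. The GR KO groups overlapped through control replicate 1. These ratios were computed after the values of both genes were seen, are not corrected for how well each 3′ end is captured, and carry no test.

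The decoy receptor gene *Il1r2* (ENSMUSG00000026073, chr1:40074079-40125231, plus strand) measured 29.8, 26.4, 22.6, 33.9 and 21.9 CPM in parental control tumors and 22.9, 18.9, 15.1, 19.6 and 16.2 CPM with GC. Without GR in the melanoma cells it was 42.9, 47.2, 42.5, 53.2 and 41.4 CPM with control treatment and 17.8, 22.4, 28.1, 26.0 and 17.8 CPM with GC. Every GR KO control tumor exceeded every tumor of the other 3 groups, the lowest of them at 41.4 CPM. Among parental tumors, 4 of 5 with GC lay below all the controls. Its change with GC, in log2, was -1.02 (SE 0.19, adjusted p = 0.00439 from edgeR) in GR KO tumors, kept in 10 of 10 fits that left out 1 tumor, and -0.54 (SE 0.19, adjusted p = 0.199 from edgeR) in parental tumors. The exact permutation tests (two-sided) gave p = 0.00794 in GR KO and p = 0.0238 in parental tumors, and the difference between the 2 effects was 0.48 (SE 0.27, adjusted p = 0.321 from edgeR).

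Of the signaling receptors, *Il1r1* encodes the receptor for IL-1α and IL-1β (ENSMUSG00000026072, chr1:40225080-40317257, plus strand). It measured 11.7, 23.4, 15.9, 14.5 and 8.53 CPM in parental control tumors and 24.9, 51.6, 25.9, 25.2 and 26.9 CPM with GC. GR KO tumors had 19.1, 14.3, 12.4, 10.3 and 30.8 CPM with control treatment and 18.1, 21.8, 34.0, 25.7 and 17.6 CPM with GC. No parental control tumor reached the lowest parental GC tumor, and the GR KO groups overlapped. By exact permutation the parental groups differed with a two-sided p of 0.00794. Over all genes the log2 fold change did not pass, at 1.06 (SE 0.31, adjusted p = 0.121 from edgeR) in parental and 0.43 (SE 0.31, adjusted p = 0.408 from edgeR) in GR KO tumors. In parental tumors DESeq2 called it at 1.06 (adjusted p = 0.0404), and so did edgeR with the *Gm26924* covariate, at 1.06 (adjusted p = 0.0471). These called 378 of 15919 and 329 of 15919 genes, against 124 of 15919. Without parental GC replicate 2 it was 0.80 (adjusted p = 0.402), not a DEG.

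*Il1rap* encodes the accessory chain shared by the receptors for IL-1, IL-33 and IL-36 (ENSMUSG00000022514, chr16:26581704-26730117, plus strand). It measured 5.22, 6.57, 3.81, 4.76 and 9.02 CPM in parental control tumors and 3.67, 1.99, 3.23, 3.00 and 4.50 CPM with GC. Without GR in the melanoma cells it was 1.17, 1.85, 3.55, 4.13 and 4.55 CPM with control treatment and 7.05, 2.32, 8.68, 7.26 and 10.9 CPM with GC. With GC, 4 of 5 parental tumors lay below every parental control and 4 of 5 GR KO tumors above every GR KO control, with GR KO GC replicate 2 as the exception. The log2 fold changes had opposite signs, at -0.84 (SE 0.42, adjusted p = 0.374 from edgeR) in parental and 1.24 (SE 0.43, adjusted p = 0.0779 from edgeR) in GR KO tumors. The difference between them was -2.08 (SE 0.60, adjusted p = 0.0986 from edgeR), with an unadjusted p of 0.00202, so it did not pass over all genes. DESeq2 called the difference, at -2.05 (adjusted p = 0.0229), and so did edgeR without GR KO control replicate 4, at -2.22 (adjusted p = 0.0367). These settings called 817 of 15919 and 1284 of 15851 genes, against 31 of 15919 by edgeR with all tumors. For GR KO tumors alone the effect was called by DESeq2, at 1.21 (adjusted p = 0.0345), and by edgeR without GR KO control replicate 4 or GC replicate 2, at 1.38 (adjusted p = 0.0463) and 1.47 (adjusted p = 0.0337). Over all genes these called 1779 of 15919, 2411 of 15851 and 1067 of 15861, against 1022 of 15919.

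*Il1rl1* encodes ST2, the receptor for IL-33 (ENSMUSG00000026069, chr1:40429570-40465415, plus strand). It measured 2.61, 5.04, 3.04, 4.28 and 3.91 CPM in parental control tumors and 4.80, 3.56, 4.29, 5.17 and 6.78 CPM with GC. GR KO tumors had 4.69, 3.52, 5.81, 5.29 and 9.03 CPM with control treatment and 2.27, 1.94, 3.82, 3.97 and 7.08 CPM with GC. The groups overlapped in both genotypes, with replicate 5 the highest in 3 of the 4 groups. The log2 fold change was 0.38 (SE 0.38, adjusted p = 0.700 from edgeR) in parental and -0.57 (SE 0.38, adjusted p = 0.374 from edgeR) in GR KO tumors.

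*Casp1* encodes caspase-1, the protease that matures IL-1β and IL-18 (ENSMUSG00000025888, chr9:5298517-5307265, plus strand). It measured 9.74, 19.1, 16.2, 20.2 and 17.8 CPM in parental control tumors and 26.9, 13.5, 17.5, 12.4 and 21.3 CPM with GC. Without GR in the melanoma cells it was 13.1, 6.15, 19.6, 33.4 and 12.2 CPM with control treatment and 31.7, 17.7, 31.8, 15.0 and 26.0 CPM with GC. The groups overlapped in both genotypes, and the GR KO control tumors were the most variable, with replicate 4 at 33.4 CPM and replicate 2 at 6.15 CPM. Its change with GC, in log2, was 0.14 (SE 0.34, adjusted p = 0.902 from edgeR) in parental and 0.53 (SE 0.35, adjusted p = 0.359 from edgeR) in GR KO tumors.

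**Figure D2:**
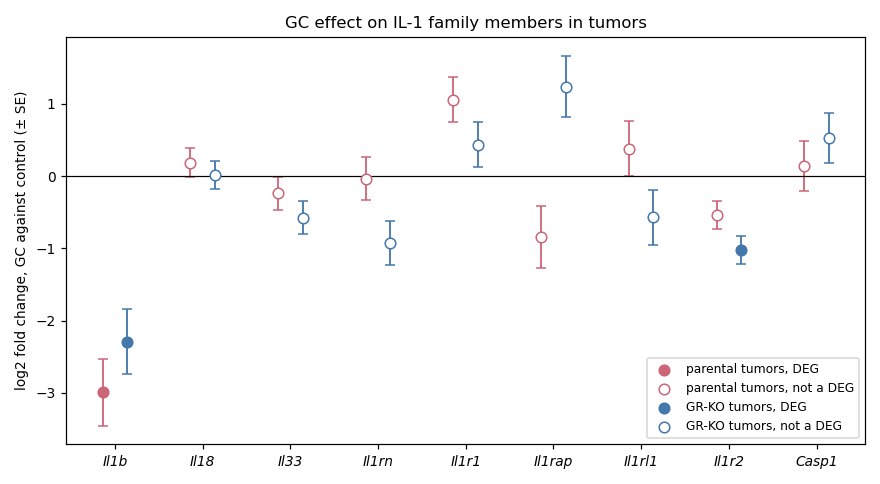
Log2 fold change with GC for the 9 genes tested in tumors, with its standard error, in parental and GR KO tumors, filled where the gene was a DEG. *Il1b* lies at -2.99 and -2.29, and *Il1rap* lies on opposite sides of 0, a difference that edgeR did not call.

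In the test of whether GC acted differently in the genotypes, 0 of the 9 genes were DEGs by edgeR, beside 0.195% of all genes. An unadjusted p under 0.05 from edgeR was found for 2 of the 9 (*Il1rap* and *Il1rn*), beside 3192 of 15919 genes. DESeq2 called 1, *Il1rap*, beside 817 of 15919 genes tested. Groups without overlap were seen for 2 of 9 genes in parental tumors (*Il1b* and *Il1r1*) beside 4.21% of all genes, and for 2 of 9 in GR KO tumors (*Il33* and *Il1r2*) beside 5.08%.

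Tumors of the genotypes were compared within each treatment. As the GR KO line is clonal, GR loss and other differences between the clone and the parental line cannot be told apart. With control treatment, *Il1r2* was higher in GR KO than in parental tumors, and it was the 1 DEG of the 9 genes, beside 2.25% of all genes. Its levels were 45.4 ± 4.87 CPM (SD, n = 5) and 26.9 ± 5.03 CPM (SD, n = 5), without overlap, and the log2 difference was 0.75 (SE 0.19, adjusted p = 0.0396 from edgeR). This call was kept in only 1 of 10 fits that left out a tumor, the 1 without GR KO control replicate 4, where 1762 of 15851 genes were called, against 358 with all tumors and 61 to 213 in the other 9 fits. The log2 difference ran from 0.69 without GR KO control replicate 4 to 0.86 without parental control replicate 4. The call was also lost with the *Gm26924* covariate, without a filter on low counts, in a fit of the 2 groups alone and at a minimum fold change of 2, although in these and all other settings the log2 difference ran from 0.74 to 0.78. *Il1rn* had 52.5 ± 22.4 CPM (SD, n = 5) in GR KO and 32.6 ± 14.7 CPM (SD, n = 5) in parental control tumors, and *Il1rap* had 3.05 ± 1.47 CPM (SD, n = 5) and 5.88 ± 2.02 CPM (SD, n = 5), and neither was a DEG. In GC tumors 0 of 9 genes were DEGs by edgeR or DESeq2, beside 0.634% of all genes by edgeR. There *Il1rap* alone of the 9 had an unadjusted p under 0.05 from edgeR, beside 1816 of 15919 genes. Its log2 difference was 1.14 (SE 0.43, adjusted p = 0.292 from edgeR).

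In cultured melanoma cells, which hold no host cells, the family was sparse. *Il1a* and *Il1b* had 0 reads in all 11 cultures, and *Il1r2* had 1, 0 and 0 reads in parental DMSO and 0, 0 and 3 in GR KO DMSO cultures and 0 in the others. These 3 genes did not pass the filter, which left 7 of 10. The floor of 3 reads lay between 0.136 and 0.207 CPM per culture, so in a culture taken alone a level below its floor would not be told reliably from 0.

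Parental cells expressed *Il18*, *Il33*, *Il1rn* and *Il1rl1* at levels that GR KO cells did not reach in DMSO, and these 4 of 7 genes were DEGs, beside 8.22% of all genes. Of the 1030 genes called in all, 757 were lower and 273 higher in GR KO cells. *Il18* measured 6.18, 10.96 and 4.64 CPM in parental and 2.03, 1.34 and 3.66 CPM in GR KO DMSO cultures. *Il1rl1* measured 3.12, 1.85 and 1.47 CPM and 0.467, 0.525 and 0.538 CPM. *Il33* had 25, 18 and 23 reads against 0, 1 and 0. For each of these genes no GR KO culture reached the lowest parental culture. *Il1rn* had 13, 7 and 32 reads in parental DMSO cultures, of which replicate 3 was the highest, and 0 in all 6 GR KO cultures. *Il33* and *Il1rn* passed the filter only through parental cultures, so for these 2 genes a call could only be lower in GR KO cells.

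The log2 difference was -1.63 (SE 0.45, adjusted p = 0.0441 from edgeR) for *Il18* and -2.06 (SE 0.53, adjusted p = 0.0347 from edgeR) for *Il1rl1*. For *Il33* the ratio of parental to GR KO reads was 79.8, with a 95% counting interval from 13.8 to 3198 and an adjusted p of 0.00848 from edgeR. *Il1rn* was at least 6.51-fold lower in GR KO cells, measured against a floor of 0.161 CPM per library (adjusted p = 0.0204 from edgeR). Without parental DMSO replicate 3, which holds 32 of its 52 reads, it was at least 3.95-fold lower. Groups without overlap were seen for 4 of 7 genes, beside 32.6% of all genes, and 3 cultures against 3 cannot give an exact permutation p under 0.1. The GR KO line is clonal, so GR loss and other differences between the clone and the parental line cannot be told apart. With the replicate number as a block, *Il18* and *Il1rl1* were not called, at -1.61 (adjusted p = 0.0952) and -2.07 (adjusted p = 0.0724). With the 2 groups alone *Il18* was at -1.64 (adjusted p = 0.0601), and *Il1rn* did not pass the filter. The calls rested on few cultures. Of 6 fits that left out 1 culture, *Il18* was called in 2, *Il1rl1* in 1 and *Il1rn* in 3, while *Il33* was tested in 3 and called in 3. Without parental DMSO replicate 1 none of the 4 was called by edgeR, where *Il18* had a log2 difference of -1.75 (adjusted p = 0.0788) and *Il1rl1* of -1.69 (adjusted p = 0.129), and *Il33* did not pass the filter. Without parental DMSO replicate 2, GR KO DMSO replicate 1 or GR KO DMSO replicate 2, 1 gene was called, and *Il18* was at -1.20 (adjusted p = 0.164), -1.54 (adjusted p = 0.139) and -1.35 (adjusted p = 0.168). Without GR KO DMSO replicate 3, *Il1rl1* lost its call at -2.09 (adjusted p = 0.0894). *Il1rn* lost its call without parental DMSO replicate 1, GR KO DMSO replicate 1 or GR KO DMSO replicate 2, with adjusted p of 0.0519, 0.0567 and 0.0595.

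GC was added to cultures to ask what melanoma cells do without a host. In parental cells 0 of 7 genes were DEGs by edgeR, beside 0.878% of all genes, and DESeq2 called 1. An unadjusted p under 0.05 from edgeR was found for 4 of the 7, beside 1062 of 12525 genes. *Il33*, 1 of these 4, passed the filter only through the parental DMSO cultures, so a call of it could only be lower with GC. *Casp1* measured 8.65, 5.67 and 9.11 CPM in DMSO and 15.7 and 13.4 CPM in GC. *Il1rl1* measured 0.276 and 0.542 CPM in GC, below all 3 DMSO cultures, and *Il33* had 1 and 5 reads in GC. *Il1rn* had 28 and 139 reads in GC, with replicate 2 far above the rest. For these 4 genes the 2 GC cultures did not overlap the 3 DMSO cultures, beside 27.8% of all genes, and the smallest exact permutation p for 2 against 3 is 0.1. The log2 fold change was 0.90 (SE 0.25, adjusted p = 0.195 from edgeR) for *Casp1* and -2.34 (SE 0.63, adjusted p = 0.174 from edgeR) for *Il1rl1*. It was -3.07 (SE 1.04, adjusted p = 0.358 from edgeR) for *Il33* and 1.96 (SE 0.80, adjusted p = 0.560 from edgeR) for *Il1rn*. With 1 culture left out, *Il1rn* ran from 0.868 to 2.68 in 5 fits, and *Il33*, tested in 2 of them, from -4.17 to -2.55. *Il1rl1* was the gene that DESeq2 called, at -2.35 (adjusted p = 0.0359), beside 251 of 12525 genes.

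In GR KO cells 0 of 7 genes were DEGs by edgeR or by DESeq2, beside 0.0% of all genes by edgeR. An unadjusted p under 0.05 from edgeR was found for 0 of the 7, beside 237 of 12525 genes. Of the 7, *Il33* and *Il1rn* were tested only because of their levels in parental cultures and, with at most 3 reads in any GR KO culture, could hardly have been called. *Casp1* measured 6.08, 7.06 and 5.98 CPM in DMSO and 6.33, 5.20 and 4.99 CPM in GC, and *Il1rl1* 0.467, 0.525 and 0.538 CPM and 0.342, 0.804 and 0.631 CPM, with overlap in both. In the test of whether GC acted differently in the cultured lines, 0 of 7 genes were DEGs by edgeR or DESeq2, beside 0.295% of all genes by edgeR. An unadjusted p under 0.05 from edgeR was found for 3 of the 7, beside 1075 of 12525 genes. Of these 3, *Il33* was near its floor in GR KO cells and passed the filter only through parental DMSO cultures. The difference in GC effect was 1.11 (SE 0.34, adjusted p = 0.403 from edgeR) for *Casp1* and -2.56 (SE 0.83, adjusted p = 0.422 from edgeR) for *Il1rl1*. *Il18* measured 5.17 and 4.16 CPM in parental GC cultures and 2.85, 1.94 and 1.26 CPM in GR KO GC cultures. *Il1r1* ranged from 1.72 to 5.11 CPM and *Il1rap* from 1.42 to 4.17 CPM over the 11 cultures. For *Il1r1* the 2 parental GC cultures lay above the 3 GR KO DMSO cultures, and all other groups overlapped for both genes.

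**Figure D3:**
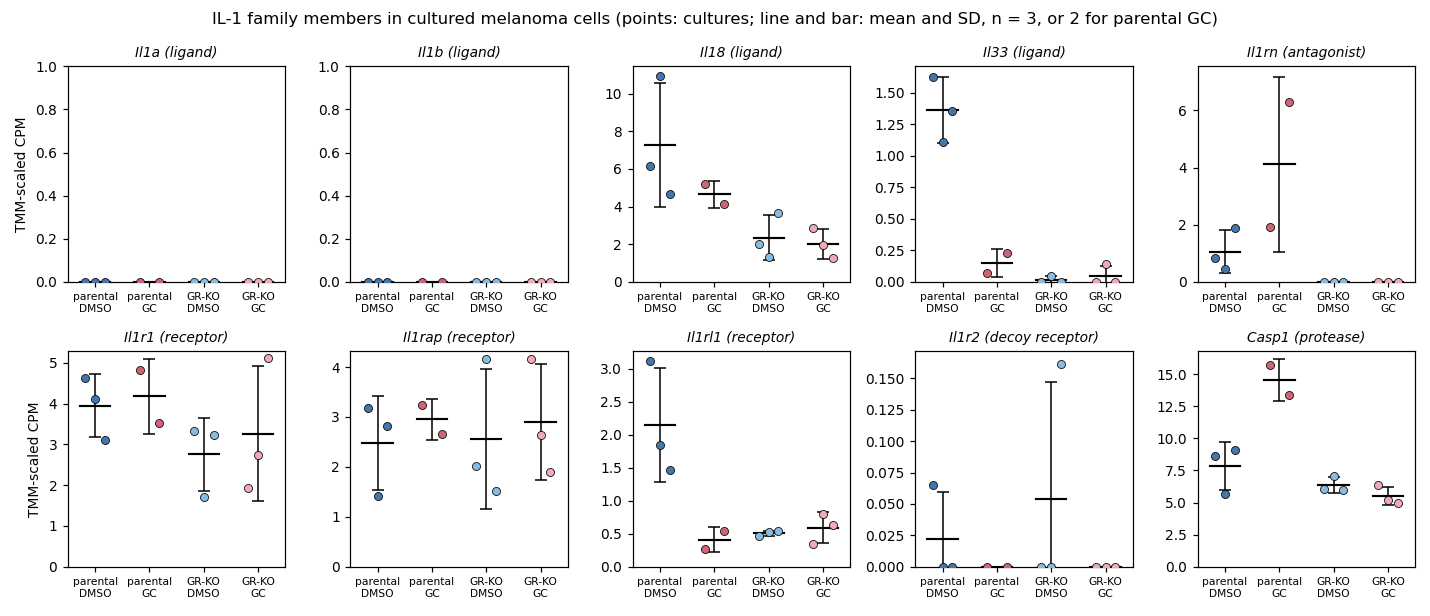
TMM-scaled CPM of the 10 genes in each culture, by group, with 1 point per culture and the mean and SD as a line and bar (n = 3, or 2 for parental cells in GC). *Il1a* and *Il1b* are at 0 in all 11 cultures, and *Il1rn* is at 0 in the 6 GR KO cultures.

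Tumors were set against cultures of the same line, without drug, to see which of the family's transcripts were higher in whole tumors. Tumors differ from cultures in host cells, growth conditions and RNA extraction, which cannot be told apart. In the parental line 8 of 9 genes were DEGs, all higher in tumors, beside 46.7% of all genes, and in the GR KO line 8 of 9, beside 54.8%. Of all genes called, 4955 of 7595 were higher in tumors in the parental line and 5560 of 8917 in the GR KO line. *Il1b* and *Il1r2* passed the filter only through tumors, so their calls could have no other direction. In the GR KO line the same held for *Il33* and *Il1rn*, which had at most 1 read in any GR KO DMSO culture. *Il1b* was at least 214-fold higher in parental tumors and at least 189.5-fold higher in GR KO tumors, against floors of 0.195 and 0.161 CPM per library. *Il1r2* was higher by a ratio of 1284 (95% counting interval 230.2 to 50728) in the parental and 910.0 (311 to 4414) in the GR KO line. Its culture reads, 1 and 3, all came from 1 culture of each line, so these ratios have no upper limit without that culture. *Il1rn* was at least 325-fold higher in GR KO tumors.

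*Il18* had 42.5 ± 1.69 CPM (SD, n = 5) in parental control tumors and 7.26 ± 3.30 CPM (SD, n = 3) in parental DMSO cultures, a log2 difference of 2.51 (SE 0.31, adjusted p = 9.15e-08 from edgeR). For *Il33* the levels were 60.4 ± 23.9 CPM (SD, n = 5) and 1.36 ± 0.259 CPM (SD, n = 3), with a log2 difference of 5.42 (SE 0.39, adjusted p = 1.42e-12 from edgeR). *Il1rl1*, not a DEG in the parental line at 0.77 (SE 0.44, adjusted p = 0.150 from edgeR), was a DEG in the GR KO line at 3.42 (SE 0.52, adjusted p = 1.58e-06 from edgeR). *Il1rap* was at 1.20 (SE 0.50, adjusted p = 0.0487 from edgeR) in the parental line, a call that was lost in 7 of 8 fits without 1 library and kept only without parental control replicate 3, at 1.35 (adjusted p = 0.0351). Among 7 other settings this call was kept in 6, with log2 differences from 1.16 to 1.23 over all 7. *Il1rap* was at 0.22 (SE 0.49, adjusted p = 0.711 from edgeR) in the GR KO line. The parental call of *Casp1*, at 1.05 (SE 0.39, adjusted p = 0.0271 from edgeR), was lost without parental control replicate 4 at 0.92 (adjusted p = 0.0558) and without parental DMSO replicate 1 at 1.13 (adjusted p = 0.0522) or 2 at 0.86 (adjusted p = 0.128).

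Ordered by mean level, the 4 tumor groups came above the 4 culture groups for all 10 genes, although for *Il1a*, *Il1rap*, *Il1rl1* and *Casp1* the SDs of the lowest tumor group and the highest culture group overlapped. For *Il1b* the order was parental control, GR KO control, GR KO GC and parental GC tumors, and only the step from GR KO control to GR KO GC tumors exceeded the SDs of its neighbors. For *Il1r2* it was GR KO control, parental control, GR KO GC and parental GC tumors, and only the first step exceeded the SDs. Among tumor groups, no step between neighbors exceeded the SDs for the other 8 genes.

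The gene positions hold a cluster. *Il1r2*, *Il1r1* and *Il1rl1* lie in 477627 bp of chr1:40074079-40551705, all on the plus strand, with *Il1rl2*, *Il18r1* and *Il18rap*, which encode the receptor for IL-36 and both chains of the receptor for IL-18. In GR KO tumors *Il1r2* and *Il18rap* fell, the latter with a log2 fold change of -1.03 (SE 0.24, adjusted p = 0.0158 from edgeR), whereas *Il1r1* and *Il1rl1* were not called and had values of 0.43 and -0.57. *Il18r1*, at -0.73 (SE 0.58, adjusted p = 0.461 from edgeR), was not called either, and *Il1rl2* was too low for a fold change, at 0.0541 ± 0.121 CPM and 0.260 ± 0.364 CPM (SD, n = 5). In parental tumors *Il18rap* was at -0.04 (SE 0.24, adjusted p = 0.965 from edgeR) and *Il18r1* at -0.97 (SE 0.58, adjusted p = 0.471 from edgeR). Antisense or overlapping genes on the opposite strand had few reads over the 20 tumors. There were 317 for *Gm16894* beside 10881 for *Il1r2* and 475 for *Bco2* beside 18536 for *Il18*, although *Gm14023* had 188 beside 66 for *Il1a*. No strand option is named for the read counting, and options not named were at their defaults, so reads of such pairs cannot be told apart.

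RefSeq promoters (GRCm38.p6, 250 bases before to 50 after the start) were found for all 10 genes, as 15 promoters. Motifs were searched on both strands in all 32851 promoters of the same length. The GR palindrome, made of inverted parts 3 bases apart, was in 0 of the 15 (0.0396% of all), and 1 part of it, AGAACA, alone in 3 (*Casp1*, *Il18* and *Il1r1*; 19.0% of all). An inverted repeat bound by GR was in 0 (0.737%), the NF-kB motif in 0 (0.411%), the PU.1 motif in 0 (1.0%), the AP-1 motif TGANTCA in 2 (*Il1a* and *Il1rn*; 7.81%) and the C/EBP motif in 3 (*Il1r1*, *Il1rl1* and *Il33*; 10.8%). TATAAA was in 6 promoters, of *Il18*, *Il1a*, *Il1b*, *Il1rn* and *Il33* (13.6%). A match is a description of letters in this window, and the lack of one says nothing of sites elsewhere. The promoters of the genes called with GC in tumors are shown because both fell in GR KO tumors, with TATAAA in capitals, which starts at -31 in *Il1b* and is absent from *Il1r2*. *Il1b* is at chr2:129371090-129371389 (minus strand) and *Il1r2* at chr1:40085843-40086142 (plus strand).
Il1b: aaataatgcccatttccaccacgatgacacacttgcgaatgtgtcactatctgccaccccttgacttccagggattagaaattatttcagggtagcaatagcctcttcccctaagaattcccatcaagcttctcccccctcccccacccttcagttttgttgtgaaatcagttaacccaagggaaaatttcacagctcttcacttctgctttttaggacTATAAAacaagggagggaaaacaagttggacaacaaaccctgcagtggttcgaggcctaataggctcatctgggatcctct
Il1r2: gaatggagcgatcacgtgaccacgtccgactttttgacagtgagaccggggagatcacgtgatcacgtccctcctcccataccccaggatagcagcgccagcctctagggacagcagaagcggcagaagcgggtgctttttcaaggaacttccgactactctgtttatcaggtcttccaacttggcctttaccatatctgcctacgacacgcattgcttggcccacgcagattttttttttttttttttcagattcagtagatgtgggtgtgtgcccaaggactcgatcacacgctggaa

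The rest of the pathway was read from lists of genes. Of 10 other IL-1 family ligands and receptors tested, 0 were DEGs with GC in parental tumors and 1 in GR KO tumors (*Il18rap*, lower), beside 0.779 and 6.42% of all genes, with median log2 fold changes of -0.00424 and -0.43. The same shares of all genes apply to the counts with GC in the pathway lists that follow. The medians over all genes were 0.00 and 0.05. Of 22 genes of IL-1 receptor signaling, 0 were DEGs in parental tumors and 1 fell in GR KO tumors, with medians of 0.05 and 0.05. It was *Rela*, which encodes the p65 subunit of NF-kB, at 703 ± 219.6 CPM with control treatment and 289 ± 77.9 CPM with GC (SD, n = 5), a log2 fold change of -1.28 (SE 0.22, adjusted p = 0.00263 from edgeR). In parental tumors *Rela* had 344 ± 29.4 CPM and 344 ± 78.0 CPM (SD, n = 5). Of 18 genes of the inflammasome and of processing, 0 were DEGs in parental and 1 fell in GR KO tumors, the pannexin gene *Panx1* at -0.95 (SE 0.27, adjusted p = 0.0334 from edgeR), with medians of -0.11 and 0.02.

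Genes known to be induced by IL-1 included DEGs of both directions. Of 16 tested, 1 rose and 1 fell in parental tumors, where 13 of 16 had negative fold changes and the median was -0.43. In GR KO tumors 1 rose and 2 fell, 9 of 16 were negative and the median was -0.04. *Cxcl5*, a chemokine that attracts neutrophils, had 5.49 ± 3.93 CPM in parental control and 0.395 ± 0.490 CPM in parental GC tumors, and 7.93 ± 4.50 CPM and 1.12 ± 0.591 CPM in GR KO tumors (SD, n = 5). Its log2 fold change was -3.77 (SE 0.76, adjusted p = 0.0136 from edgeR) and -2.81 (SE 0.72, adjusted p = 0.0222 from edgeR). *Vcam1*, an adhesion molecule for leukocytes, rose from 95.4 ± 16.2 CPM to 192 ± 33.6 CPM in parental and from 77.7 ± 18.6 CPM to 182 ± 35.6 CPM in GR KO tumors (SD, n = 5), at 1.01 (SE 0.19, adjusted p = 0.00957 from edgeR) and 1.23 (SE 0.20, adjusted p = 0.00142 from edgeR). The adhesion molecule gene *Icam1* fell in GR KO tumors at -0.84 (SE 0.24, adjusted p = 0.0373 from edgeR), beside -0.57 (SE 0.24, adjusted p = 0.277 from edgeR) in parental tumors.

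Marker lists of cell types were read beside *Il1b* and *Il1r2*, and the part of cell numbers in those results was not tested. The DEG counts of all these marker lists stand beside 0.779% of all genes called in parental and 6.42% in GR KO tumors. The summed level of 12 neutrophil genes was 171, 609.8, 828, 197 and 2115 CPM in parental control and 155, 138, 271, 119.8 and 293 CPM in parental GC tumors. It was 627, 993, 472, 303 and 1205 CPM in GR KO control and 243, 114, 387, 349 and 210.1 CPM in GR KO GC tumors. Parental control replicates 2, 3 and 5 were high, and the defining marker *Ly6g* was at 0 in all 20 tumors. *Mmp9* was the most abundant gene in 3 groups and *S100a8* in GR KO control tumors. Of 9 neutrophil genes tested, 2 fell in parental tumors, *S100a9* at -5.03 (SE 0.98, adjusted p = 0.0109 from edgeR) and *S100a8* at -3.96 (SE 0.94, adjusted p = 0.0437 from edgeR), and 0 were DEGs in GR KO tumors by edgeR. The medians were -1.27 and -0.48.

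The 4 general leukocyte genes summed to 1246, 1014, 984, 1246 and 950.4 CPM in parental control and 952, 894, 519.5, 1211 and 669 CPM in parental GC tumors. The sums were 2796, 2061, 1858, 1642 and 1699 CPM in GR KO control and 857, 1088, 802, 851 and 901 CPM in GR KO GC tumors. As with *Il1r2*, every GR KO control tumor lay above every tumor of the other 3 groups. *Coro1a* fell in parental tumors, at -1.29 (SE 0.30, adjusted p = 0.0371 from edgeR). *Laptm5* and *Cd52* fell in GR KO tumors, at -1.34 (SE 0.24, adjusted p = 0.00284 from edgeR) and -1.08 (SE 0.26, adjusted p = 0.0167 from edgeR). The list medians were -0.35 and -0.84.

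Of 13 monocyte and macrophage genes, 0 were DEGs in parental tumors and 1 rose in GR KO tumors (*Mrc1*, at 1.20 with adjusted p = 0.0267 from edgeR), with medians of -0.15 and 0.03. The list summed to 6296, 6969, 4939, 5777 and 4705 CPM in parental control and 7129, 8753, 4266, 9522 and 6274 CPM in parental GC tumors, led by *C1qa*, with overlap. In GR KO tumors the sums were 9796, 8752, 6838, 8097 and 7303 CPM with control treatment and 6241, 8927, 5815, 5865 and 5620.4 CPM with GC. Of 9 dendritic cell genes, 1 fell in parental tumors (*Ccl22*, at -1.79 with adjusted p = 0.00744 from edgeR) and 3 fell in GR KO tumors (*Ccl22*, *Batf3* and *Zbtb46*), with medians of -1.10 and -1.06. Of 11 T and NK cell genes, 0 were DEGs in parental and 2 fell in GR KO tumors (*Foxp3* and *Cd3d*), with medians of -0.50 and -0.69. Of 8 mast cell and basophil genes, 0 were DEGs in either genotype, with medians of 0.53 and 0.00.

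Keratinocytes and fibroblasts can express *Il33*, and keratinocytes *Il1rn*, so their lists were read too. Of 11 keratinocyte genes, 2 rose in parental tumors (*Krt15* and *Lor*), and 3 rose (*Krt1*, *Flg* and *Krt10*) and 2 fell (*Dsp* and *Krt14*) in GR KO tumors, with medians of 0.44 and 0.14. Their summed level was 4627, 5187, 4105, 3097 and 3036 CPM in GR KO control and 1833, 2244, 2572, 2612 and 2229 CPM in GR KO GC tumors, without overlap. *Krt14* led these sums, with means of 2277 and 851 CPM, whereas 7 of the 11 genes had positive fold changes. The sum was 2181, 2123, 2265, 2214 and 4147 CPM in parental control and 2668, 3546, 2594, 2919.8 and 3157 CPM in parental GC tumors, with replicate 5 the highest control. Of 9 fibroblast genes, 0 were DEGs in parental and 4 rose in GR KO tumors (*Col1a2*, *Col3a1*, *Col1a1* and *Pdgfra*), with medians of 0.18 and 0.24. The fibroblast genes summed to 3790.2, 4123, 4701, 6734 and 5273 CPM in GR KO control and 10120.1, 8294, 11524, 7517 and 11358 CPM in GR KO GC tumors, without overlap and higher with GC. They summed to 6922, 7549, 7152, 7609 and 7273 CPM in parental control and 10847, 8464, 10842, 7889.9 and 10868 CPM in parental GC tumors, also without overlap and higher with GC. *Col3a1* led the parental sums, with means of 2944 CPM without GC and 3546 CPM with it. *Col1a1* led those of the GR KO line, with means of 2004 and 3123 CPM. Not every gene followed the sums. For the parental line 6 of the 9 fold changes were positive and 3 negative, against 8 and 1 for the GR KO line. Of 7 endothelial genes, 0 were DEGs in parental and 2 fell in GR KO tumors (*Kdr* and *Egfl7*), with medians of -0.81 and -0.60. Of 6 melanocyte lineage genes tested, 0 were DEGs in either genotype, with medians of -1.49 and 0.01.

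**Figure D4:**
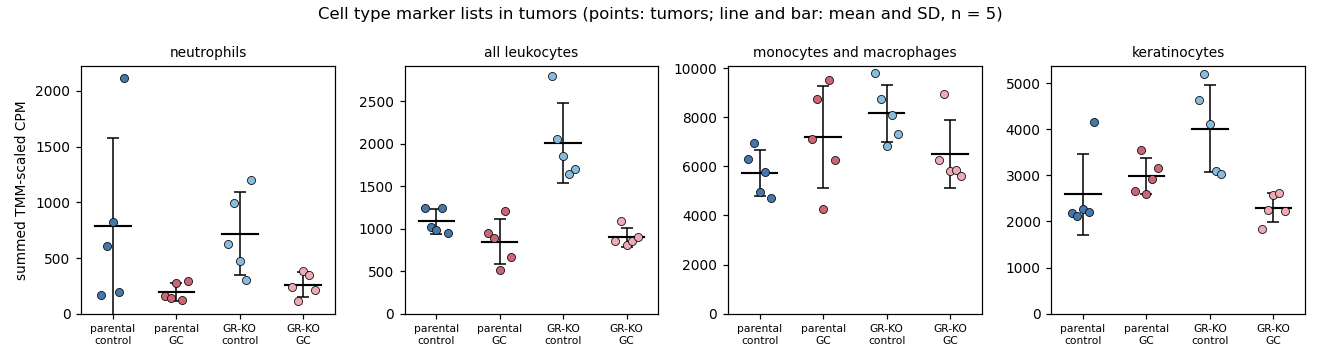
Summed TMM-scaled CPM of 4 marker lists in each tumor, by group, with 1 point per tumor and the mean and SD of 5 tumors as a line and bar. The GR KO control tumors have the highest sums of general leukocyte genes, and parental control replicate 5 has the highest sum of neutrophil genes.

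Across the 20 tumors, which fall into 4 groups, the genes whose log2 levels were most like *Il1b* by Pearson correlation were *Cd209g* (r = 0.835), *Cd247* (r = 0.819) and *Plek2* (r = 0.801). Within groups, after group means were removed, they were *Csf2rb2* (r = 0.853), *Tmem126a* (r = 0.849) and *Srgn* (r = 0.834). For *Il1r2* they were *Tnfrsf18* (r = 0.903), *Dhx58* (r = 0.894) and *Irf8* (r = 0.881) by level, and *Klrb1b* (r = 0.767), *Chst10* (r = 0.755) and *Dhx58* (r = 0.749) within groups. For *Il1r1*, *Snx7* ranked first by level (r = 0.897) and within groups (r = 0.863). These are the highest values over all genes tested and are given as a description. Among the 9 family genes tested in tumors, *Il1b* had r = 0.600 with *Il33* by level and 0.540 within groups. With *Il1r1* it had -0.620 by level and -0.131 within groups. The highest values within groups were 0.731 for *Il1rap* with *Il1rl1* and 0.666 for *Il1b* with *Il1rap*.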

How the data were processed

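Bulk 3′ RNA sequencing covered 20 tumors and 11 cultures in 8 groups. The authors trimmed and aligned the reads, counted them per gene on GRCm38 (mm10 in the submitters' processing notes, which also name edgeR and DESeq2), and deposited the counts without filter or normalization. The values are read counts as deposited by the authors. The members and lists were chosen with earlier results of these data known.

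Counts were scaled with TMM factors and fitted in edgeR 4.0.16 (R 4.3.3) with its quasi-likelihood F test, for the 4 tumor groups, the 4 culture groups, and all 8 groups for tumors against cultures. Genes with at least 0.5 CPM in at least 3 libraries of a fit were tested, with Benjamini-Hochberg adjustment over all of them. Standard errors came from the F statistic. DESeq2 1.42.0 was an alternative. Exact permutation tests (two-sided) used log2(CPM + 1) and were not adjusted. Counting intervals were exact binomial ones. The pipeline was tested on simulated data. Genes named were all 10 members and, from each list, up to 4 DEGs with the smallest p for GC in tumors and the most abundant marker; other named genes were chosen after their values were seen. The lists were other IL-1 family ligands and receptors, IL-1 receptor signaling, the inflammasome and processing, genes known to be induced by IL-1, and markers of neutrophils, monocytes and macrophages, dendritic cells, mast cells and basophils, T and NK cells, keratinocytes, fibroblasts, endothelial cells, the melanocyte lineage and leukocytes. Alternatives were other size factors, filters, fold minimums and pseudocounts, fits of the compared groups alone, the replicate number as a block, leaving out each library, and the *Gm26924* covariate, which was chosen after seeing the data.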

Additional observations from a re-analysis of the deposited data

Results flagged for a closer look

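In 3 of the 40 groups of 5 tumors that were examined (10 genes in 4 groups), 1 tumor lay far from the other 4, with a gap above 0.71 of the group's range. *Il1a* was at 0.459 CPM in parental GC replicate 1, where the other 4 tumors were at 0. *Il1a* was at 0.386 CPM in GR KO control replicate 4, where the other 4 were also at 0. *Il1r1* was at 51.6 CPM in parental GC replicate 2, where the other 4 lay between 24.9 and 26.9 CPM. For *Il1a* any single tumor with reads would meet this limit when the other 4 are at 0, so those 2 say only that the gene was near its floor.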

How the results depend on the processing

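The calls of *Il1b* with GC in both genotypes and of *Il1r2* with GC in GR KO tumors were kept under every alternative run. Under DESeq2 the number of family DEGs went from 1 to 2 for GC in parental tumors, from 2 to 4 for GC in GR KO tumors, from 0 to 1 for the difference between these effects and from 0 to 1 for GC in parental cells. Over all genes DESeq2 also called more, from 124 to 378, 1022 to 1779, 31 to 817 and 110 to 251. With the *Gm26924* covariate, chosen after seeing the data, it was 2 for GC in parental tumors and 0 for GR KO against parental control tumors, while all genes called went from 124 to 329 and from 358 to 69. The latter was also 0 at a minimum fold change of 2, without a filter on low counts and with the 2 groups alone. The log2 difference of *Il1r2* there was 0.74 to 0.78 in all these settings. For GR KO against parental DMSO cells it was 2 instead of 4 with at least 10 counts in 50% of the libraries, with the 2 groups alone and with the replicate block. The count filter removed *Il33* and *Il1rn* from the test, and the fit of 2 groups removed *Il1rn*. Without a filter it was 3, since *Il1rl1* was not called. *Il18* was lost with the 2 groups alone and *Il18* and *Il1rl1* with the block. These calls were lost with little change in fold, *Il18* at -1.65 to -1.61 and *Il1rl1* at -2.07 to -2.05. Leaving out 1 library at a time gave 0 to 1 for the difference in tumors, 2 to 4 for GC in GR KO tumors, 0 to 1 for GR KO against parental control tumors and 0 to 3 for DMSO cells. Leaving out libraries for the at-least folds was added after seeing the data.

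Small fold changes changed sign. *Il18* with GC in GR KO tumors was -0.00947 under DESeq2 and -0.00900 with its size factors in edgeR, and ran from -0.0943 to 0.157 with 1 tumor left out. *Il1rn* with GC in parental tumors was 0.0427 with the replicate block and ran from -0.158 to 0.282 with 1 tumor left out. In the same comparison *Casp1* ran from -0.0368 to 0.252 and *Il33* from -0.359 to 0.0168. With a pseudocount of 0.1 the direction for *Il1rap* between GR KO and parental DMSO cells reversed in the exact permutation test, with p = 1.0. Same-numbered tumors had a mean correlation of 0.0583 over 30 pairs of group deviations and cultures 0.0198 over 15. Single pairs ran from -0.543 to 0.415 in tumors and from -0.552 to 0.620 in cultures. Because the means were near 0, no block was used in the main fits, although these do not exclude shared effects in some pairs. With 3 cultures a group or fewer, no permutation p can pass, and *Il1a* in tumors and *Il1b* and *Il1r2* in cultures were too low for a fold change.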

Other observations

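Between GR KO and parental cells in DMSO, the lists of the pathway were set beside 8.22% of all genes called. The DEGs were 0 of 3 other IL-1 family genes tested, 1 of 21 signaling genes (lower, while 16 of the 21 values were positive), 2 of 10 genes of the inflammasome and of processing (both lower) and 3 of 10 genes known to be induced by IL-1 (2 lower, 1 higher). Those named here were chosen after their values were seen. They include *Aim2*, a sensor of cytosolic DNA, at 0.357 ± 0.577 CPM against 9.95 ± 2.23 CPM, and *Gsdmd*, which forms the pore that releases IL-1β, at 1.27 ± 0.189 CPM against 7.15 ± 1.85 CPM (SD, n = 3). Their log2 differences were -4.81 (SE 0.85, adjusted p = 0.00458 from edgeR) and -2.49 (SE 0.51, adjusted p = 0.0109 from edgeR), the only 2 DEGs among the genes of the inflammasome and of processing. For *Aim2* in GR KO cells the SD exceeded the mean, and the floor there was 0.143 to 0.161 CPM, so the size of its fold is uncertain. Of the genes known to be induced by IL-1, *Ptgs2*, which encodes cyclooxygenase-2, was higher in GR KO cells, at 13.4 ± 2.27 CPM against 6.47 ± 1.10 CPM (SD, n = 3), a log2 difference of 1.05 (SE 0.27, adjusted p = 0.0344 from edgeR). *Vcam1* was lower, at -1.82 (SE 0.22, adjusted p = 3.90e-04 from edgeR).

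Between genotypes in control tumors the DEGs were 0 of 10 other IL-1 family genes tested, 1 of 22 signaling genes, 0 of 18 genes of the inflammasome and of processing and 1 of 16 genes known to be induced by IL-1, beside 2.25% of all genes. The last was *Mmp3*, a matrix protease induced by IL-1, at 357 ± 86.5 CPM in GR KO and 133 ± 16.8 CPM in parental tumors (SD, n = 5), a log2 difference of 1.43 (SE 0.22, adjusted p = 0.00212 from edgeR). The signaling gene was *Rela*, also higher in GR KO control tumors, at 1.03 (SE 0.22, adjusted p = 0.0252 from edgeR). In GC tumors 0 genes of the 4 IL-1 lists were DEGs between genotypes by edgeR, beside 0.634% of all genes. An unadjusted p under 0.05 from edgeR was found for 7 of the 66 tested, beside 1816 of 15919 genes. The lists were not tested with DESeq2, with the *Gm26924* covariate or with a tumor left out.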
